A study of Mus musculus with 10 samples.

Results

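Tuft cells of the mouse small intestine (SI), sorted by a reporter of Il25, were compared with the reporter-negative epithelium of the same organ. The comparison used 6 of the 10 RNA-seq libraries of the series, chosen by their labels: tuft libraries 2, 3 and 4 and epithelium libraries 1, 2 and 3. All mice were naive males of 12 weeks and carried the strain label C57BL6.Il25(Flare25/Flare25), so both groups came from animals with the Flare25 reporter on both copies of Il25. Each library was made from 1 mouse. Cells were freed from the tissue with DTT and EDTA and sorted as living (DAPI-), CD45- and EPCAM+, with Flare25+ cells taken as tuft cells (35000 to 36000 per library) and Flare25- cells as epithelium (52000 to 57000). Of 4 replicates sorted per population, the authors discarded 1 of SI tuft cells and 1 of epithelium for quality, and only 2 and 3 are numbers that both groups share. The series also holds 4 libraries of thymic tuft cells, which enter below only where counts shared with them touch a value.

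Tuft cells are scattered epithelial cells with a bundle of long, stiff microvilli. They detect luminal substances through receptors, G proteins, a phospholipase C, release of stored calcium and the cation channel Trpm5, and they answer with interleukin 25, eicosanoids and acetylcholine, which act on immune cells and nerves. Their development depends on Pou2f3, a POU factor whose family binds an octamer motif in DNA. Most other cells of the villus are absorptive enterocytes, accompanied by mucus-forming goblet cells and hormone-releasing enteroendocrine cells, whereas stem cells, dividing progenitors and antimicrobial Paneth cells lie in the crypt.

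A total of 16063 genes were tested with edgeR's quasi-likelihood test, which calls a gene at a Benjamini-Hochberg adjusted p below 0.05. Of these genes 43.5% were called, 3475 (21.6%) as higher and 3513 (21.9%) as lower in tuft cells, and all counts below should be read against these shares. The median log2 fold change (tuft minus epithelium) over all genes was -0.03. Changes of at least 8-fold were called for 585 genes on the higher and 778 on the lower side, and changes of at least 32-fold for 241 and 265. Levels are counts-per-million values (CPM) scaled by the trimmed mean of M values, and means are given ± SD over n = 3 libraries per group. Of the 6988 called genes 6920 had libraries that did not overlap between the groups, as did 56.6% of all genes tested (26.8% with tuft libraries higher and 29.9% with them lower).

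Libraries held 46846738 to 73574745 gene counts, and 3 counts in a library correspond to 0.0408 to 0.0640 CPM before scaling. The biological coefficient of variation was 22.7% among epithelium and 42.7% among tuft libraries. The first principal component (71.7% of the variance) split the groups, and the second (11.4%) set tuft library 2 apart from tuft library 4. Mitochondrial genes took 20.99 ± 2.58% of the counts in epithelium and 28.2 ± 4.86% in tuft cells, and whether this share bears on other values was not tested beyond the alternative without these genes. Genes called higher by at least 8-fold made up 0.600 ± 0.0398% of the non-mitochondrial counts in epithelium and 14.1 ± 0.862% in tuft cells, whereas those called lower by at least 8-fold made up 18.3 ± 0.868% and 0.494 ± 0.0760%. In these bulk samples, fewer cells of a type and less RNA per cell cannot be told apart.

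Of the 3 genes behind the gates, Il25 differed between the groups, Epcam was not called, and Ptprc was higher in tuft cells although the gate excluded its protein in both groups. Il25, the gene that carries the reporter, was at 0.137, 0.189 and 0.380 CPM in the epithelium libraries and 21.5, 23.9 and 19.6 CPM in the tuft libraries. Its libraries did not overlap (log2 change 6.48 with an SE of 0.37, adjusted p = 6.47e-07). Epcam was at 1036 CPM in epithelium and 1299 CPM in tuft cells and was not called (adjusted p = 0.0696). Ptprc, which encodes CD45, rose from 5.35 ± 2.97 to 131 ± 19.4 CPM (log2 change 4.62 with an SE of 0.42, adjusted p = 1.58e-05). In a list of tuft markers 52 of 53 members tested were called higher (median log2 change 6.04). The list was chosen with earlier results of these data known, so it is no independent check of the tuft label. The remaining member was Tas1r3, a subunit of the sweet and umami taste receptors, at 3.48 CPM in epithelium and 6.48 CPM in tuft cells.

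Promoters were searched for the octamer because Pou2f3 differed strongly between the groups, at 9.63, 9.54 and 12.3 CPM in the epithelium libraries and 553, 653 and 485 CPM in the tuft libraries (log2 change 5.75 with an SE of 0.19, adjusted p = 3.03e-08). The octamer was searched as ATGCAAAT and its reverse complement ATTTGCAT in RefSeq promoters (GRCm38.p6), which run from 250 bases before to 50 bases after the start of a gene. Of the 13604 protein-coding genes tested 10696 had a promoter in the table, some with several starts that were all searched, and 1.63% of those (174) held the octamer on either strand. Among genes called higher by at least 8-fold the share was 4.69% (16 of 341), among those called lower by at least 8-fold it was 0.971% (5 of 515), and among genes that were not called it was 1.38% (77 of 5583). These shares are a description with no test, and a match of letters is no evidence of binding. Over all 32851 promoters in the table the share was 1.74%.

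The promoters of 3 members of the tuft list held the octamer, and they are shown with Prkcb, another gene called higher, with the octamer in capitals. Each run gives the 250 bases before the start in RefSeq, 5′ to 3′ on the strand of the gene. Hpgds encodes the prostaglandin D synthase of blood cells, Kctd12 a partner of GABA-B receptors, Sucnr1 the receptor for succinate and Prkcb protein kinase C beta. The windows are chr6:65144731-65144980 (minus strand), chr14:102982638-102982887 (minus), chr3:60081619-60081868 (plus) and chr7:122288875-122289124 (plus), in the same order.
Hpgds: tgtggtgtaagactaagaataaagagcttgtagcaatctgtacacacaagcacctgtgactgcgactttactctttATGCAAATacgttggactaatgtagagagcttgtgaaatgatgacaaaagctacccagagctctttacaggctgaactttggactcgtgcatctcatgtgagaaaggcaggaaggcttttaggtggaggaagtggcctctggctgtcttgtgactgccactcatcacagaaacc
Kctd12: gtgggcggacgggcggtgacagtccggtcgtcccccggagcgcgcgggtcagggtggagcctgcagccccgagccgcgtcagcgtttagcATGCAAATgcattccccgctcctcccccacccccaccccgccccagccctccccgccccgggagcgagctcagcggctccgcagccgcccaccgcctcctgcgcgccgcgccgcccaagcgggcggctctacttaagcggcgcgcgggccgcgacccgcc
Sucnr1: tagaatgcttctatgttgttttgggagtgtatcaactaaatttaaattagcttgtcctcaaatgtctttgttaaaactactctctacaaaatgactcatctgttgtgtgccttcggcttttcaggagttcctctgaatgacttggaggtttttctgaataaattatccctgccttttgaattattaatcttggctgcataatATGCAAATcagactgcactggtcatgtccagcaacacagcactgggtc
Prkcb: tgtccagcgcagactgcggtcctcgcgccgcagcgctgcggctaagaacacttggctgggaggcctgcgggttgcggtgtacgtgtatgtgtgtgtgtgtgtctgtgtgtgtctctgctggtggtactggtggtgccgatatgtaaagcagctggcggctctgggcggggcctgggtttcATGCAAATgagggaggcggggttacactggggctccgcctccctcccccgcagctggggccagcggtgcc

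The octamer began 48 bases before the start in Sucnr1, 70 bases before it in Prkcb, 160 in Kctd12 and 174 in Hpgds. It was on the strand of the gene in all 4, but this did not hold for every match. In Pfkfb3, also called higher by at least 8-fold, the octamer was on the opposite strand only, as in several other promoters not shown. Sucnr1 was at 0.789, 0.429 and 0.257 CPM in the epithelium libraries and 20.5, 17.6 and 25.5 CPM in the tuft libraries, so that its groups were far apart although its level in tuft cells was low. Prkcb rose from 0.232 to 22.8 CPM (log2 fold change 6.50; epithelium libraries 1 and 2 held 6 counts together), Kctd12 by 5.74 and Hpgds by 4.98 on the log2 scale. Sequences of the other 12 promoters with a match among the 8-fold genes are not shown.

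Among the largest increases by the rule used was that of Nrgn. Nrgn, the calmodulin-binding protein neurogranin, was at 1.81, 1.54 and 8.01 CPM in the epithelium libraries and 590.4, 522 and 613 CPM in the tuft libraries (ENSMUSG00000053310, GRCm38 chromosome 9, 37544492 to 37552904). Epithelium library 3 was the highest of its group here, yet all 3 tuft libraries were far above it (log2 change 7.23 with an SE of 0.63, adjusted p = 1.27e-05; 8.42 without that epithelium library). Col15a1, a basement-membrane collagen, rose by 7.03 on the log2 scale (8.27 without epithelium library 3), Folr1, a folate receptor, by 6.97, and Dnah6, an axonemal dynein, by 6.96 (8.17 without that library). Ly6g6f, which encodes a surface protein, rose from 1.81 to 224 CPM. Rgs13, a brake on G protein signalling, rose by 6.95, and Sh2d6, an adaptor with an SH2 domain, by 6.78. Per length, Sh2d6 was the third most abundant nuclear transcript of tuft cells, at 25514 TPM (transcripts-per-million values, counts divided by exon length) against 224 in epithelium. It followed Fabp1, a fatty acid-binding protein, at 33735 and Krt18, a keratin of simple epithelia, at 32175. In epithelium the highest levels per length were those of the goblet genes Tff3 (98646) and Zg16 (63405).

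Genes of the tuft list were mostly low in the reporter-negative gate. Of the tuft list 47 genes reached 50 CPM in tuft cells, and their level in epithelium had a median of 1.45% of that in tuft cells (1.44%, 1.26% and 1.61% in libraries 1, 2 and 3). The lowest was Nrgn at 0.658%, the highest Bpgm, which makes a regulator of haemoglobin, at 17.1%, and 41 of the 47 were under 5%. Transcripts of other secretory lineages were mostly scarce in tuft cells, with exceptions. For genes with at least 50 CPM in epithelium the median level in tuft cells was 3.36% for 22 goblet genes and 2.21% for 14 Paneth genes. It was 7.25% for 17 enteroendocrine genes. Under 5% were 14 of the goblet, 12 of the Paneth and 3 of the enteroendocrine genes. The highest were at 141% (Muc13) in the goblet list, 73.3% in the Paneth list and 159% (Cdkn1a) in the enteroendocrine list. Tuft library 2 had the lowest median of enteroendocrine genes (3.98% against 9.74% and 8.56% in libraries 3 and 4), and library 3 that of Paneth genes (0.814% against 2.63% and 3.02%). These percentages were computed before the subtraction of counts shared with thymic libraries that is described below. That subtraction removed 18.4% of the epithelium counts of Dclk1 and 43.9% of those of Plcb2, but 1.72% of those of Matk. All these lists were chosen with earlier results of these data known, and their genes by level in the group where they are high. Low percentages are thus partly built in, and they do not measure how well the gates separated the cells. The source of the residual transcripts was not tested.

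**Figure D1:**
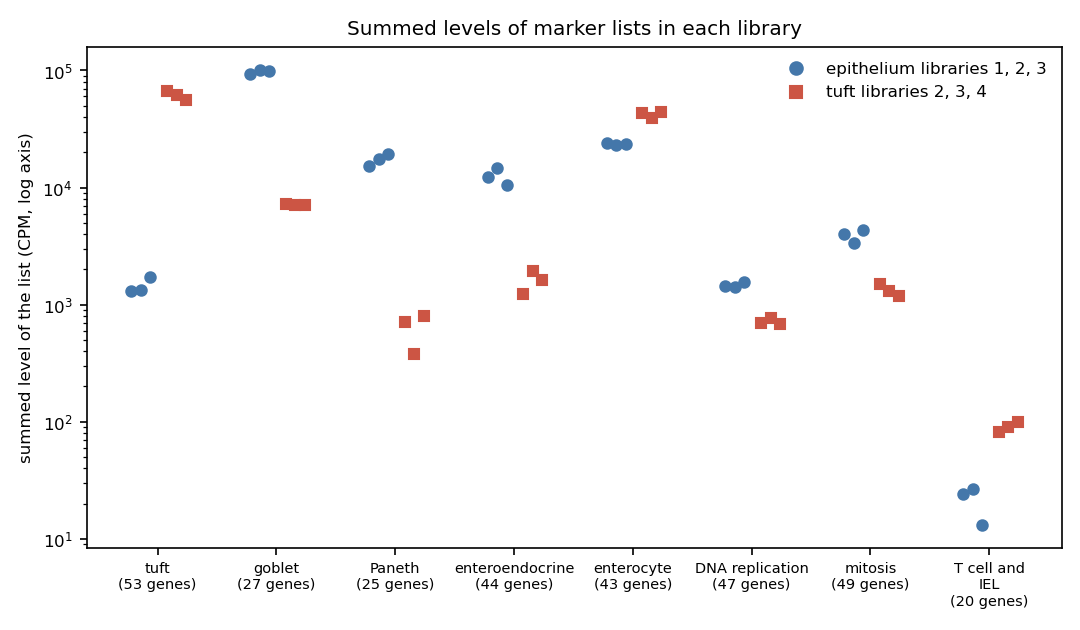
Summed level of each marker list (CPM, log axis) in each of the 6 libraries, with epithelium as circles and tuft libraries as squares. Tuft genes were higher and goblet, Paneth, enteroendocrine, replication and mitosis genes lower in every tuft library than in every epithelium library, whereas enterocyte genes were higher in tuft libraries.

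The secretory lineages were lower as whole programmes. Among goblet genes 25 of 27 fell (median log2 fold change -4.75), led by the lectin gene Zg16 (from 21784 to 405 CPM), the trefoil gene Tff3 (from 13283 to 296 CPM), Fcgbp, a mucus protein, and the mucin Muc2 (from 25311 to 623 CPM). The exceptions were B3gnt6, an enzyme of core O-glycans, and Muc13, a membrane mucin, which rose by 3.22 and 0.50. The call of Muc13 was lost without epithelium library 1 or 2 or tuft library 3 (log2 fold change 0.41 to 0.51). Of 25 Paneth genes 23 fell (median -5.41), with Mptx2, a pentraxin, at 103, 101 and 178 CPM in the epithelium libraries and 1.72, 0.111 and 0.475 CPM in the tuft libraries (log2 fold change -7.33, or -8.74 without tuft library 2). Lyz1, a lysozyme, fell by 5.33 on the log2 scale, and Mmp7, which activates defensins, fell by 5.69. Defensin genes such as Defa24 (-5.52) fell as well, but they are near-identical in sequence and their counts may be split among copies.

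Enteroendocrine genes fell for 38 of 44 members (median -3.74). Nts, the gut hormone neurotensin, went from 45.3 to 0.865 CPM, Gip, an incretin, from 439 to 17.9 CPM and Ghrl, the hunger hormone ghrelin, from 207 to 9.32 CPM. Sst, the hormone somatostatin, was at 1593, 1478 and 883 CPM in the epithelium libraries and 2.28, 169.9 and 39.5 CPM in the tuft libraries. Its tuft libraries were far apart, with library 3 the highest and library 2 the lowest, and all were below the epithelium libraries (adjusted p = 0.00981; log2 change -4.22, or -5.99 without tuft library 3). Sct, the hormone secretin, was at 500.1, 634 and 400.2 CPM in the epithelium libraries and 127, 165 and 193 CPM in the tuft libraries, and its log2 fold change of -1.66 (adjusted p = 1.40e-04) was smaller than those of Nts, Gip, Ghrl and Sst. On the higher side were Marcksl1, an actin-binding substrate of protein kinase C (2.82) and Cdkn1a, which stops the cell cycle.

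Absorptive genes were mostly higher in tuft cells than in the whole reporter-negative gate, or not called. This is no comparison with enterocytes alone, since goblet genes had the highest levels per length in that gate (Tff3 98646 and Zg16 63405 TPM). The part of the make-up of that gate, and of enterocyte transcripts carried into the tuft gate, was not tested. Of 43 enterocyte genes 25 rose and 1 fell, with a median of 0.56, and the count of those higher was 16 without epithelium library 2. The 36 of them with at least 50 CPM in epithelium were at a median of 150% of the epithelial level in tuft cells, from 80.9% for the lowest to 478% for Fabp1. Fabp1, which binds fatty acids in the cytosol, was at 1141, 1153 and 803 CPM in the epithelium libraries and 5532, 4287 and 4979 CPM in the tuft libraries (log2 change 2.26 with an SE of 0.19, adjusted p = 1.03e-05). Rbp2, a retinol-binding protein, rose from 1391 to 3213 CPM, and the apolipoproteins Apoa1 and Apoa4 by 0.90 and 0.87, though the call of Apoa1 was lost without any 1 of epithelium libraries 2 and 3 and tuft libraries 3 and 4 (log2 fold change 0.65 to 0.84). Gstm3, a glutathione transferase, and Fabp2, the second fatty acid-binding protein, were not called (1023 CPM in epithelium and 1924 CPM in tuft cells, and 1894 CPM in epithelium and 2698 CPM in tuft cells). Amn, a subunit of the vitamin B12 receptor, fell by 1.03 on the log2 scale, and its call was lost without epithelium library 1 (log2 fold change -0.89). With upper quartile scaling, under which the median of all genes dropped by 0.09 on the log2 scale, 22 of the enterocyte genes were called higher.

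Transcription factor families held members called in both directions. Of 37 homeobox genes outside the Hox clusters 6 rose and 13 fell. Those that rose included Hmx2 (from 0.511 to 57.8 CPM), Hmx3 (from 0.637 to 50.1 CPM), Pou2f3 and Prox1 (from 17.02 to 104 CPM), a regulator of progenitor fates. Those that fell included regulators of endocrine cells, with log2 fold changes of -4.81 for Onecut3, -4.11 for Pax6 and -3.35 for Lmx1a. The general intestinal factor Onecut2 was not called (295 CPM in epithelium and 348 CPM in tuft cells).

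Among basic helix-loop-helix genes 5 of 41 rose and 18 fell (3 rose without epithelium library 1 or 3). Atoh1, which starts the secretory fate, was at 89.3, 111 and 166 CPM in the epithelium libraries and 3.51, 4.13 and 4.24 CPM in the tuft libraries (log2 change -4.95 with an SE of 0.25, adjusted p = 3.19e-07). Neurod1 and Bhlha15, factors of endocrine and of enzyme-secreting cells, fell, with log2 fold changes of -3.71 and -4.18. Hes1, a Notch target that represses Atoh1, fell from 98.3 to 31.2 CPM. Tcf4 and Usf2 rose by 1.04 and 0.93.

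In the Sox, Tcf, Gata and Fox group 6 of 30 rose and 10 fell (5 fell without epithelium library 3). Tcf7l1, a repressor at Wnt targets (ENSMUSG00000055799, GRCm38 chromosome 6, 72626378 to 72789254), was at 0.850, 1.06 and 1.27 CPM in the epithelium libraries and 43.7, 40.2 and 41.3 CPM in the tuft libraries, whereas its relative Tcf7l2 went from 145 to 218 CPM. Sox9, a factor of crypt and Paneth cells, rose from 102 ± 11.9 to 547 ± 36.3 CPM (log2 change 2.43 with an SE of 0.14, adjusted p = 8.08e-07), whereas Foxa3, of goblet cells, fell by 4.31 on the log2 scale. Of the Ets, Runx, Klf, Ikaros and Gfi group 12 of 54 rose and 21 fell. Gfi1b (from 3.93 to 258 CPM), Spib (from 17.9 to 854 CPM), Runx1 (from 6.33 to 133 CPM) and Ikzf4 (from 2.36 to 10.9 CPM), all best known from blood cells, rose. Gfi1, the close relative of Gfi1b that acts in goblet and Paneth cells, went the other way, from 7.29 to 0.487 CPM (log2 fold change -3.89). Of 37 nuclear receptors 4 rose and 13 fell, among the latter the immediate early gene Nr4a1 (-2.48). The adipogenic receptor Pparg rose from 11.97 to 49.8 CPM. Hox cluster genes were scarce in both groups, and 18 of 35 were too low to be tested. By edgeR 7 of the 17 tested rose. Genes this scarce in epithelium can pass the filter on their tuft counts alone, so the count does not show a direction. Hoxa4 and Hoxa5 were at 0.174 and 0.202 CPM in epithelium and 8.67 and 5.07 CPM in tuft cells.

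**Figure D2:**
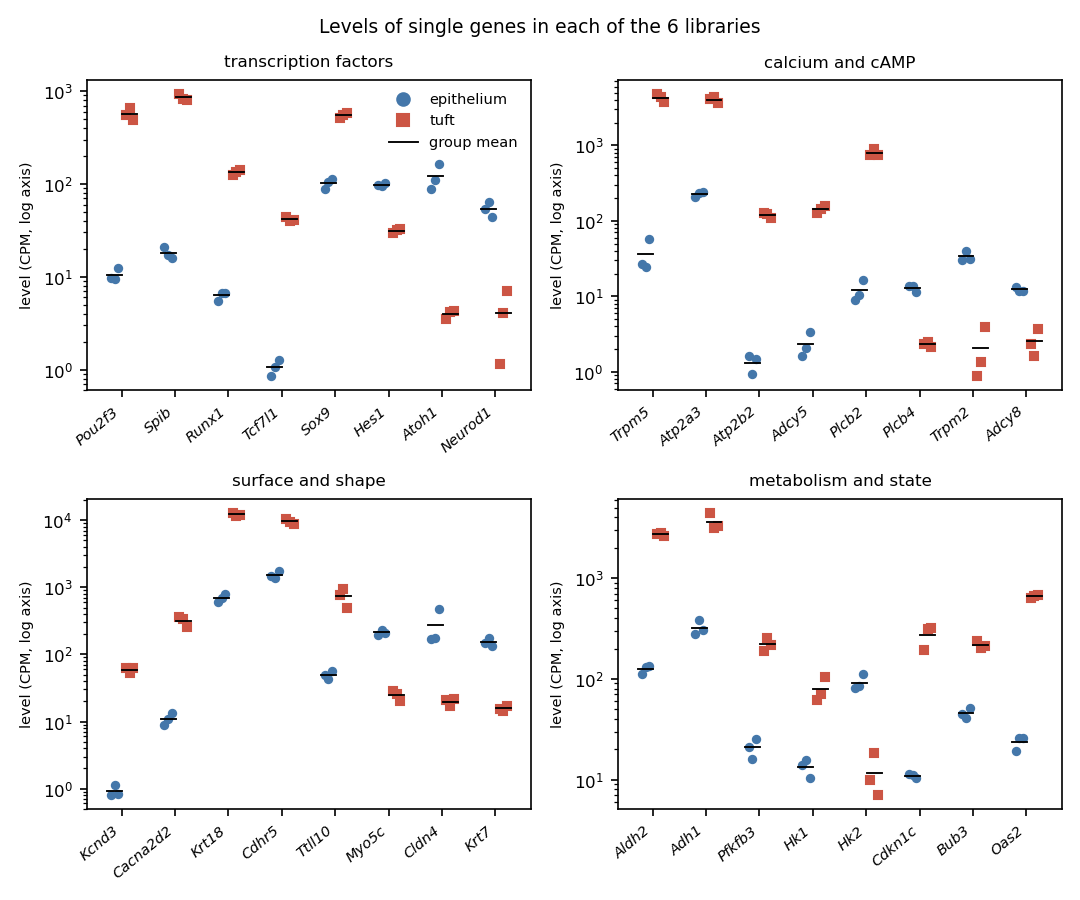
Levels of single genes (CPM, log axis) in each of the 6 libraries, with a bar at the mean of each group of 3. In each of the 4 panels the circles of epithelium and the squares of tuft cells do not overlap for any gene.

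Surface receptors for metabolites, nucleotides and peptides were more often lower than higher, with 6 of 44 called higher and 23 called lower (median -1.50). Ffar3, which senses short-chain fatty acids, was at 6.92, 4.26 and 5.03 CPM in the epithelium libraries and 532, 599 and 529.8 CPM in the tuft libraries (log2 change 6.68 with an SE of 0.22, adjusted p = 3.03e-08). Adora1, an adenosine receptor, rose from 1.80 to 73.9 CPM, and Lpar6, a receptor for lysophosphatidic acid, from 11.1 to 50.9 CPM. The related fatty acid receptor Ffar2 fell from 12.1 to 2.48 CPM. Ptgdr, a receptor for prostaglandin D2, fell from 13.2 to 0.398 CPM, P2ry4, a nucleotide receptor, from 13.6 to 0.557 CPM and Chrm1, a muscarinic receptor, from 14.96 to 1.05 CPM. Lpar5 and the neuropeptide receptor Vipr1 were not called (17.5 CPM in epithelium and 22.5 CPM in tuft cells, and 80.4 CPM in epithelium and 62.9 CPM in tuft cells). Adgrg2, an adhesion receptor, rose from 1.53 to 122 CPM, and Adgrg4, of the same family, fell from 257 to 12.2 CPM.

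G protein subunits split evenly, with 8 of 28 called higher and 8 lower. Gnat3, the alpha subunit gustducin of taste cells, rose from 3.21 to 31.4 CPM, and Gnai2, an inhibitory alpha subunit, rose from a higher start, from 142 to 661 CPM. Per length Gnai2 was at 664 and Gnat3 at 87.1 TPM in tuft cells. Gna12 rose by 2.04, whereas the neuronal subunits Gng4 and Gnao1 fell (log2 fold changes of -4.31 and -3.31). Genes of the Rgs family, which shorten G protein signals, were called higher for 9 of 19 and lower for 6, with Rgs13 at 6.10, 4.45 and 5.71 CPM in the epithelium libraries and 949, 471 and 592 CPM in the tuft libraries.

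Genes of calcium signalling were more often higher than lower, with 25 of 54 genes called higher and 12 lower. Trpm5, Plcb2 and Itpr2, named below, are also members of the tuft list, so this count is not independent of that list. Trpm5 was at 26.4, 24.7 and 58.1 CPM in the epithelium libraries and 4765, 4362 and 3695 CPM in the tuft libraries (log2 change 6.87 with an SE of 0.38, adjusted p = 5.91e-07). The phospholipase Plcb2 rose from 11.98 to 792 CPM, and Plcb1, an isoform of the same enzyme, fell from 10.8 to 0.506 CPM. Atp2b2, which pumps calcium out of the cell, rose from 1.33 ± 0.352 to 119 ± 10.3 CPM (log2 change 6.48 with an SE of 0.23, adjusted p = 3.34e-08). Atp2a3, which pumps calcium into stores, was the most abundant pump gene in tuft cells by counts, from 227 to 4009 CPM, while the widespread store pump Atp2a2 fell from 171 to 115 CPM. Itpr2, a receptor that releases stored calcium, rose from 22.6 to 557 CPM and Itpr3 fell from 169.9 to 126 CPM, a call that was lost without any 1 of the libraries except epithelium library 3 (log2 fold change -0.49 to -0.29). Camkk1 rose by 6.26, and Trpm2, a channel opened by oxidative stress, fell by 4.06. Plcb3 and Mcu, the mitochondrial calcium channel, were not called (359 CPM in epithelium and 292 CPM in tuft cells, and 98.8 CPM in epithelium and 84.9 CPM in tuft cells).

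Genes of cyclic nucleotide signalling were called higher for 12 and lower for 12 of 35. Adcy5, an adenylyl cyclase inhibited by calcium, was at 1.59, 2.04 and 3.36 CPM in the epithelium libraries and 128, 145 and 157 CPM in the tuft libraries (log2 change 5.93 with an SE of 0.28, adjusted p = 1.73e-07). Adcy8, a cyclase that calcium activates, fell from 12.4 to 2.55 CPM. The phosphodiesterases Pde8a, Pde9a and Pde6d rose by 1.97, 1.53 and 1.37. Rapgef3, an exchange factor driven by cAMP, fell from 6.39 to 0.214 CPM.

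Ion channels were called higher for 17 and lower for 22 of 52. P2rx1, a channel gated by ATP, rose from 1.89 to 133 CPM. The potassium channel gene Kcnd3 rose and was at 0.805, 1.12 and 0.845 CPM in the epithelium libraries and 63.6, 52.8 and 61.9 CPM in the tuft libraries. The potassium channels Kcnb2, Kcnh6 and Kcnc1 fell, with log2 fold changes of -4.01, -4.01 and -4.80, and over the whole family 7 of 46 were called higher and 19 lower. Cacna2d2, an auxiliary subunit of calcium channels, rose from 11.1 to 316 CPM, and its relative Cacna2d1 fell from 27.3 to 1.70 CPM. Cftr, the chloride channel of crypt cells, fell by 1.54, and Kcnk1, a leak channel for potassium, was not called.

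**Figure D3:**
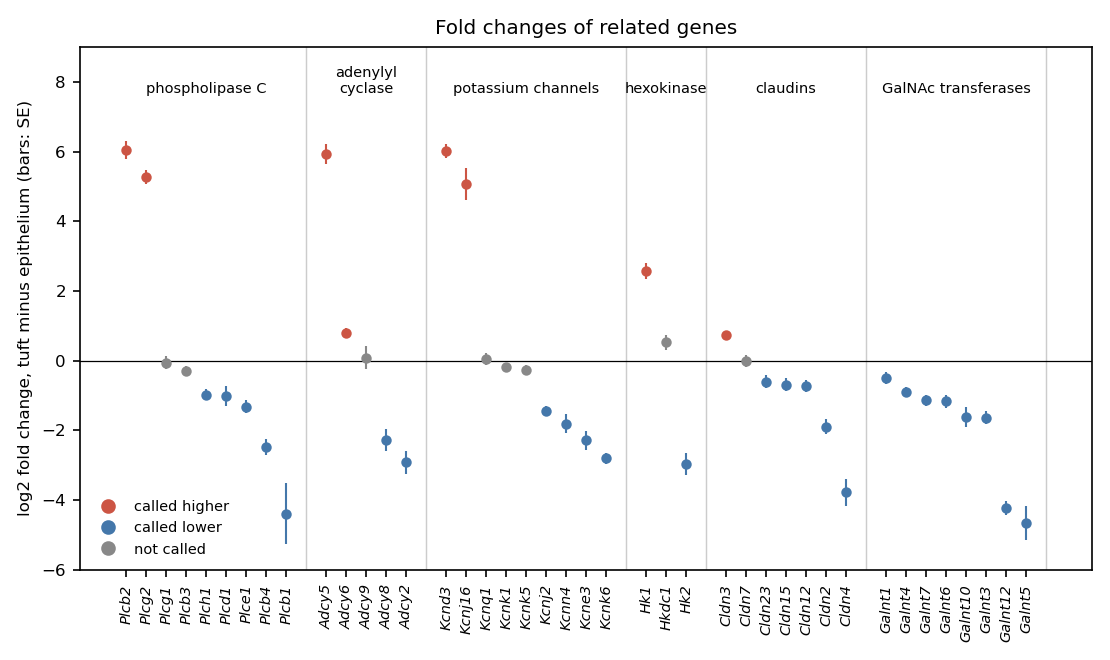
Log2 fold change (tuft cells minus epithelium, bars of 1 SE) of related genes in 6 groups. Within the phospholipase C, adenylyl cyclase, potassium channel, hexokinase and claudin groups members were called in both directions, whereas all 8 GalNAc transferases shown were called lower.

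Signalling genes best known from blood cells rose widely. In the Src, Tec, Syk and PI3K group 24 of 50 rose and 6 fell (median 0.60). Matk, a kinase that restrains Src kinases, rose from 17.3 ± 4.12 to 1897 ± 263 CPM (log2 change 6.77 with an SE of 0.25, adjusted p = 3.64e-08), and Inpp5d, a lipid phosphatase, from 4.61 to 374 CPM. Pik3r5, a subunit of PI3K gamma, went from 43.2 to 3430.1 CPM, and Ptpn6, a phosphatase that dampens immune receptors, from 15.8 to 869 CPM. Syk fell by 1.69, and Frk, a Src-like kinase of epithelia, fell by 0.86. Jak1, a kinase of cytokine receptors, was not called (124 CPM in epithelium and 145 CPM in tuft cells).

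Of adaptors and exchange factors 20 of 54 rose and 6 fell (10 fell without tuft library 2). Vav1, an exchange factor for Rac, rose from 10.1 to 1069 CPM, and Rac2, the Rac of blood cells, from 18.8 to 1344 CPM, whereas the common Rac1 fell from 284 to 192 CPM. The call of Rac1 was lost without epithelium library 1 or 3 or tuft library 3 or 4 (log2 fold change -0.56 to -0.44). Fyb, an adaptor of integrin signalling, rose by 6.46 and Sh2b2 by 6.45. Sh2d6, Sh2d7, Vav1, Fyb, Rac2 and Skap2 are also members of the tuft list, as are Matk, Inpp5d, Pik3r5, Bmx, Ptpn6 and Pik3cg of the kinase group.

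Genes of cytokines and growth factors were called higher for 11 and lower for 11 of 46. Besides Il25, Ltb, a lymphotoxin subunit, rose from 0.336 to 23.8 CPM, Nrg4, a ligand of ErbB4, from 5.91 to 37.6 CPM and Tnf from 3.19 to 18.9 CPM. Btc and Areg, which bind the EGF receptor, fell from 11.7 to 0.629 CPM and from 79.3 to 26.02 CPM. Dll4, a Notch ligand, fell by 2.50, and Il33, an alarm cytokine, fell by 1.69 on the log2 scale.

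Of receptors for cytokines and growth factors 16 of 62 rose and 20 fell. Il17rb, the receptor of Il25 itself, was at 8.68, 7.85 and 12.4 CPM in the epithelium libraries and 684, 650.5 and 533 CPM in the tuft libraries (log2 change 6.01 with an SE of 0.23, adjusted p = 4.94e-08). Csf2ra, the alpha chain of a receptor for a myeloid growth factor, rose from 16.8 to 119 CPM, Fgfr4 from 5.22 to 25.5 CPM and Ifnar2, of the type I interferon receptor, from 7.87 to 33.2 CPM. Egfr fell from 84.6 ± 5.97 to 16.6 ± 1.51 CPM (log2 change -2.35 with an SE of 0.14, adjusted p = 8.53e-07), and Fgfr3 and Tgfbr2 fell as well (log2 fold changes of -1.68 and -1.34). Erbb3 and Ifngr2 were not called (187 CPM in epithelium and 161 CPM in tuft cells, and 102 CPM in epithelium and 84.7 CPM in tuft cells).

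The eicosanoid genes that rose (14 of 33, with 7 lower) spanned the routes to leukotrienes and prostaglandin D2. Alox5, the first leukotriene enzyme, was at 7.76, 5.80 and 10.1 CPM in the epithelium libraries and 920.4, 797 and 869.6 CPM in the tuft libraries. Its partner Alox5ap rose by 6.03 and Ltc4s, which forms leukotriene C4, by 6.09. Alox5, Alox5ap and Ltc4s are also members of the tuft list. The phospholipases behaved differently among themselves. Pla2g4a, which releases arachidonate inside the cell, rose from 12.1 to 50.04 CPM, while the secreted Pla2g10 and Pla2g2a fell from 11.6 to 0.122 CPM and from 30.6 to 1.31 CPM. Hpgd, which degrades prostaglandins, was not called (102 CPM in epithelium and 115 CPM in tuft cells).

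Vesicle and granule genes fell for 27 of 49 and rose for 10 (median -1.11). The granule proteins of endocrine cells were among those lower, with Syt7, a calcium sensor of fusion, going from 75.7 to 4.01 CPM and Sytl2, a goblet granule gene, from 187 to 6.52 CPM. Higher were Unc13d (from 2.05 to 23.6 CPM), which primes lytic granules in blood cells, Rims2 (2.03 on the log2 scale) and Vamp8 (from 59.01 to 176 CPM). Chat, which makes acetylcholine, rose from 3.32 to 273 CPM, and its adjusted p was 3.03e-08.

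Of 60 actin, brush border and keratin genes 30 rose and 16 fell. Avil and Krt18, named below, are also members of the tuft list. Avil, an actin-bundling relative of villin, rose from 27.4 ± 16.3 to 2216 ± 334 CPM (log2 change 6.34 with an SE of 0.42, adjusted p = 1.92e-06) and Espn, which bundles actin in stiff microvilli, from 36.4 to 562 CPM. Krt18 was at 605, 692 and 799 CPM in the epithelium libraries and 12813, 11735 and 12078 CPM in the tuft libraries, while the keratins Krt7, Krt19 and Krt20 fell, with a log2 fold change of -3.29 for Krt7. Cdhr5, the cadherin that links the tips of microvilli, rose from 1534 to 9575 CPM, and its partner Cdhr2 rose by 2.37. Of 21 myosins 11 were called higher and 1 lower. That 1 was Myo5c, a motor of secretory granules, from 214 to 24.97 CPM. Actb, the common actin, was at 1749.7 CPM in epithelium and 2085 CPM in tuft cells and was not called.

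Microtubule genes were called higher for 18 and lower for 18 of 56. Dclk1, a kinase that binds microtubules and a standard tuft marker, rose from 22.2 ± 3.32 to 2089.8 ± 196 CPM (log2 change 6.55 with an SE of 0.19, adjusted p = 2.38e-08). Map1a, a microtubule stabiliser of nerve cells, rose from 10.00 to 322 CPM, Tuba1a, an alpha tubulin, from 20.7 to 410.3 CPM, and Ttll10, a glycylase of the tubulin ligase family, was at 48.8, 43.4 and 56.4 CPM in the epithelium libraries and 762, 942 and 497 CPM in the tuft libraries. Tubb2b, a beta tubulin, fell from 11.9 to 0.715 CPM, and Map1b, a relative of Map1a, from 31.8 to 3.38 CPM.

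Glycolysis genes were higher for 22 of 42 and lower for 8 (median 0.54). The hexokinases of the first step differed in direction. Hk1 was at 13.95, 15.7 and 10.3 CPM in the epithelium libraries and 62.4, 71.2 and 105 CPM in the tuft libraries, and Hk2 at 80.4, 84.2 and 111 CPM in the epithelium libraries and 9.84, 18.4 and 7.04 CPM in the tuft libraries. The groups did not overlap for either gene, and their log2 fold changes were 2.57 (SE 0.23) and -2.97 (SE 0.32). Pfkfb3, which makes the activator of phosphofructokinase, rose from 20.9 to 220.2 CPM, and Aldoc, an aldolase, from 12.3 to 72.1 CPM. The glucose transporter Slc2a1 went from 134 to 762 CPM (log2 fold change 2.51). In the citric acid cycle 4 of 29 genes were higher and 6 lower, in which Idh2 fell by 1.37. Of 37 subunits of NADH dehydrogenase 20 were called higher and 1 lower, with Ndufa1 going from 49.1 to 176 CPM.

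Of 16 aldehyde dehydrogenases tested 5 rose and 3 fell. Aldh2, the mitochondrial aldehyde dehydrogenase (ENSMUSG00000029455, GRCm38 chromosome 5, 121566027 to 121593824), was at 112, 132 and 133 CPM in the epithelium libraries and 2749.7, 2829 and 2633 CPM in the tuft libraries (log2 change 4.45 with an SE of 0.16, adjusted p = 3.34e-08), and Adh1, an alcohol dehydrogenase, at 280.3, 385 and 303 CPM in the epithelium libraries and 4436, 3176 and 3266 CPM in the tuft libraries (log2 change 3.49 with an SE of 0.20, adjusted p = 7.59e-07). Both were above 2000 CPM in every tuft library, and in neither did the groups overlap. Aldh3a2, which oxidises fatty aldehydes, rose by 1.97. In the list of drug metabolism genes (cytochrome P450, conjugating enzymes, esterases, alcohol and aldehyde dehydrogenases and Abc transporters) 20 of 50 rose and 2 fell. Fatty acid genes rose for 22 and fell for 7 of 56. Acacb, which makes malonyl-CoA at mitochondria, rose from 3.86 to 111 CPM, and Slc27a1, a fatty acid transporter, from 17.4 to 212 CPM, while the desaturases Fads2 and Fads1 fell (log2 fold changes of -1.995 and -1.61). Ethe1, an enzyme of sulfide oxidation, rose from 35.1 to 432 CPM, and Gpx3, a secreted glutathione peroxidase, fell from 147 to 12.5 CPM. Car7, a carbonic anhydrase, was at 0.835, 1.15 and 1.16 CPM in the epithelium libraries and 179, 100.1 and 102 CPM in the tuft libraries.

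Of the list of 44 sugar-chain enzymes 10 rose and 22 fell. Of 11 GalNAc transferases tested, which start mucin-type chains, 10 were called lower. Galnt5 fell from 41.7 to 1.64 CPM and Galnt12 from 49.1 to 2.62 CPM. Of the enzymes that branch the chains, Gcnt3 fell from 219 to 11.4 CPM and its relative Gcnt1 rose from 0.976 to 59.2 CPM. St6galnac6, a sialyltransferase, and Fut2, which adds fucose, rose from 3.51 to 114 CPM and from 12.1 to 272 CPM. Junction genes rose for 11 and fell for 18 of 46. Cldn4, a claudin of tight junctions, was at 168, 175 and 473 CPM in the epithelium libraries and 20.9, 17.3 and 21.4 CPM in the tuft libraries (log2 fold change -3.78, or -3.11 without epithelium library 3), and Cldn2 fell from 181 to 48.6 CPM, whereas Cldn3 rose from 187 to 309.9 CPM.

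**Figure D4:**
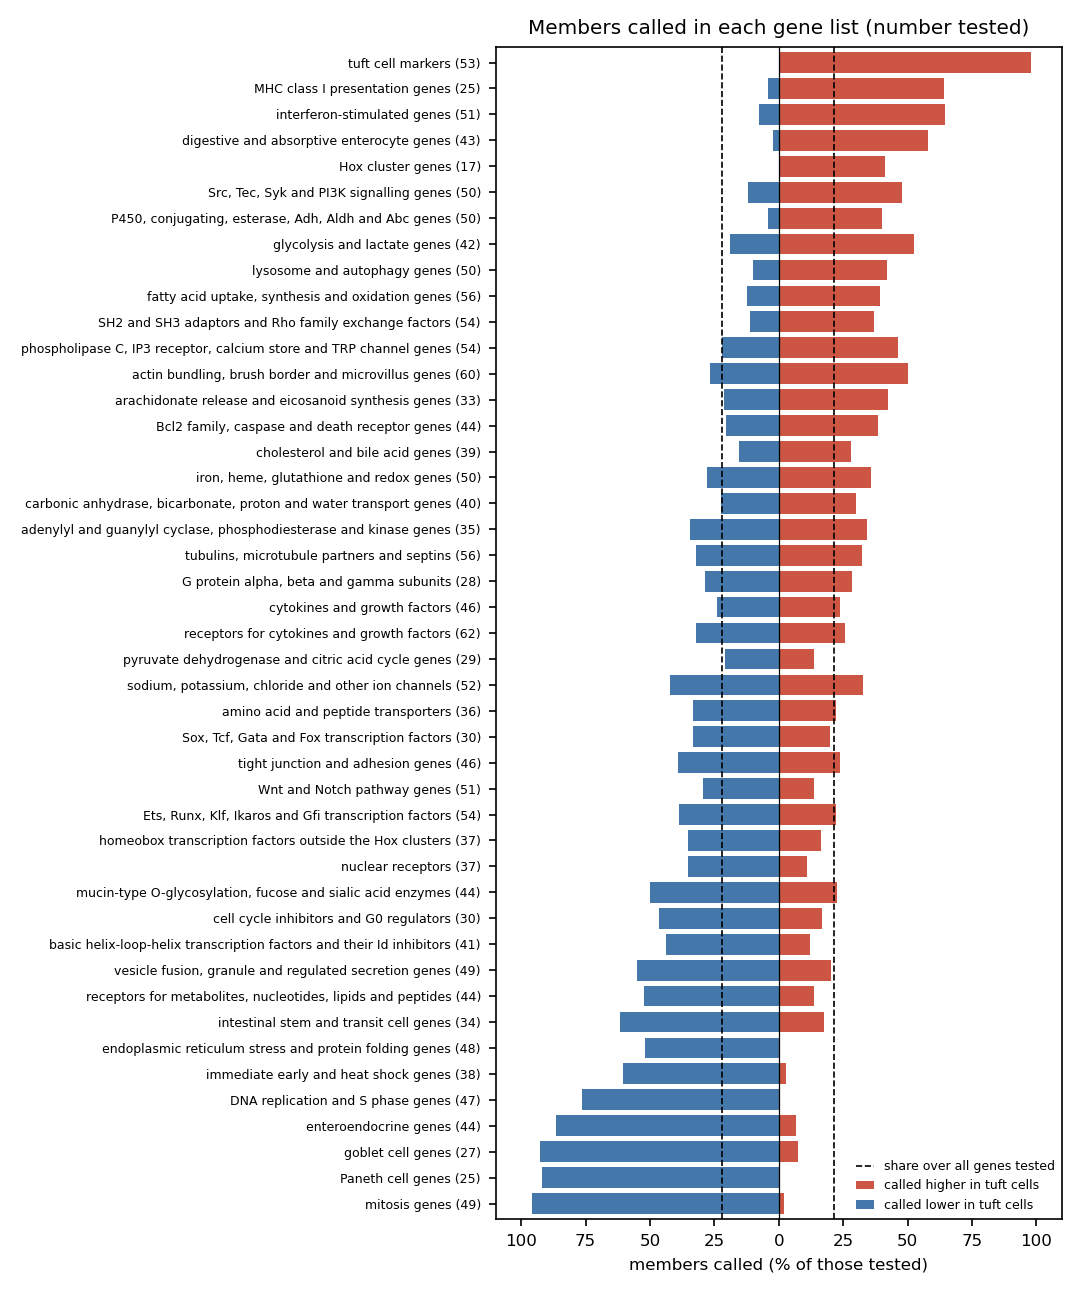
Share of the tested members of 45 gene lists called higher (red, to the right) or lower (blue, to the left) in tuft cells, with dashed lines at the shares over all genes tested (21.6% and 21.9%). The number tested stands beside each name, and lists are ordered by the difference between both shares. Left out by choice were the lists of B and plasma cell, myeloid, stromal, T cell, thymic, MHC class II, regional and mucosal defence genes. The bar of the Hox genes does not show a direction, as they can pass the filter on tuft counts alone.

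Genes of proliferation were lower. Of 49 mitosis genes 47 fell (median -1.96), among them Aurkb, a mitotic kinase, from 65.3 to 11.5 CPM. The only one called higher was Bub3, a subunit of the spindle checkpoint, at 44.6, 41.3 and 51.7 CPM in the epithelium libraries and 240.0, 201 and 210.1 CPM in the tuft libraries (log2 change 2.24 with an SE of 0.14, adjusted p = 1.43e-06). Of 47 genes of DNA replication 36 fell and 0 rose by edgeR (1 was higher at an unadjusted p below 0.05 and 1 was called higher by DESeq2), and E2f2 was not called (63.2 CPM in epithelium and 58.9 CPM in tuft cells). Of 30 cell cycle inhibitors and regulators of rest 5 rose and 14 fell (median -0.47). Among those that rose Cdkn1c, which holds cells out of the cycle, was at 11.3, 11.1 and 10.4 CPM in the epithelium libraries and 192, 310.2 and 321 CPM in the tuft libraries (log2 change 4.65 with an SE of 0.22, adjusted p = 1.76e-07), and Ccnd2, a cyclin that drives entry into the cycle, fell by 2.45.

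Stem and transit cell genes fell for 21 of 34 and rose for 6 (median -1.30). Olfm4, a stem cell marker, fell from 515 to 72.6 CPM. Msi1, an RNA-binding protein of stem cells, rose from 12.5 to 141 CPM, and Sox9 and Hopx were called higher as well. In the Wnt and Notch list Dvl1, a relay of Wnt signals, rose from 34.8 to 246 CPM, and 7 of 51 rose and 15 fell in all (4 rose without epithelium library 1).

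Immediate early genes and endoplasmic reticulum genes were more often lower than higher, and apoptosis genes were not. Immediate early and heat shock genes fell for 23 of 38 and rose for 1, with Egr1 at 3768, 4279.9 and 4543 CPM in the epithelium libraries and 1563, 1283 and 1074 CPM in the tuft libraries. Both groups were released with DTT and EDTA, and the part of handling in these levels was not tested. Of endoplasmic reticulum stress and folding genes 25 of 48 fell, with Ern2, a stress sensor of goblet cells, going from 431 to 25.6 CPM. Among apoptosis genes 17 of 44 rose and 9 fell, and 11 rose without epithelium library 1 or 2. Bcl2l14, a member of the Bcl2 family, rose from 29.1 to 377 CPM, and Ripk3, a kinase of necroptosis, from 25.9 to 104 CPM.

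Interferon-stimulated genes rose for 33 of 51 and fell for 4 (median 1.18). Oas2, a sensor of double-stranded RNA, was at 19.3, 25.7 and 25.99 CPM in the epithelium libraries and 638, 665 and 674 CPM in the tuft libraries (log2 change 4.80 with an SE of 0.17, adjusted p = 3.34e-08), and Irf7, a regulator of interferon genes, rose from 65.8 to 407 CPM. Ifitm3, which blocks virus entry, and Ifitm2 fell, the former from 98.01 to 24.5 CPM and the latter from 90.2 to 42.05 CPM. MHC class I genes rose for 16 of 25, led by the regulator Nlrc5 (from 0.837 to 12.8 CPM) and H2-D1 (from 274 to 1439.9 CPM), whose sequence is close to other class I genes. MHC class II genes were called lower for 5 of 14, but 1 was called lower once counts shared with the thymic libraries were subtracted, and 3 without epithelium library 1 or 3 or tuft library 4.

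Some genes of other cell types were detected, mostly at low levels. T cell and intraepithelial lymphocyte genes rose for 11 of 20 tested, all at low levels, and 12 more were too low to be tested. Summed levels of those tested were 24.3, 26.7 and 13.1 CPM in epithelium and 82.4, 90.6 and 98.8 CPM in tuft libraries. Gzmb, a granzyme, was at 5.57, 4.81 and 1.76 CPM in the epithelium libraries and 12.05, 22.4 and 24.6 CPM in the tuft libraries, and Cd3e, of the T cell receptor complex, at 1.45 CPM in epithelium and 9.48 CPM in tuft cells. Of macrophage, dendritic and mast cell genes 3 of 11 tested rose, and 16 more were too low to be tested. Summed levels of those tested were 25.5, 21.4 and 25.5 CPM in epithelium and 50.9, 35.97 and 23.5 CPM in tuft libraries. As with the Hox genes, members of both lists that are scarce in epithelium can pass the filter on their tuft counts alone. The counts and sums of these lists therefore do not show a direction. Of 6 B and plasma cell genes tested, 1 fell and 0 rose by edgeR (2 were higher at an unadjusted p below 0.05, and DESeq2 called 2 higher). The defining gene Cd3e was thus above 0 although both gates excluded CD45+ cells, and the part of lymphocyte and myeloid transcripts in Ptprc, Lck and other blood-cell genes was not tested. The epithelium libraries also held counts that tracked single thymic libraries, with shares of 0.445%, 0.449% and 0.507% of thymic libraries 3, 2 and 1. The 282 genes behind these shares had at most 2 counts in the tuft libraries by choice, so the shares say nothing of the tuft libraries. Subtracting them left 3483 genes called higher and 3423 lower, with 158 calls lost. Of 22 thymic epithelium genes 13 were called lower before and 2 after subtraction. It raised the fold change by more than 1.5-fold in 6 named genes, Sema6c among them (from 7.08 to 8.02). Log2 fold changes of Il25 went from 6.48 to 7.28, Gnat3 from 3.30 to 5.31, Plcb2 from 6.04 to 6.92, Car7 from 6.91 to 7.99 and Nlrc5 from 3.94 to 4.79.

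Genes annotated as noncoding in GENCODE M21 also separated the groups. Fcnaos rose from 0.594 to 63.3 CPM, 2810468N07Rik from 0.263 to 25.3 CPM and 1700081H04Rik from 0.535 to 42.9 CPM. Fcnaos, which is antisense to Fcna, shares 30.2% of its exon length with Ccdc183 and Fcna. 2810468N07Rik shares 15.5% with Sox8, and reads of such overlaps cannot be told apart. On the lower side 9030622O22Rik went from 15.2 to 0.123 CPM, AW112010, a transcript induced in immune responses, from 149 to 22.8 CPM, and Snhg15, a host of small nucleolar RNAs, from 13.1 to 2.37 CPM. Among families defined by their symbols, 14 of 24 serpins, most of them protease inhibitors, fell, and 39 of 80 cytosolic ribosomal proteins fell and 4 rose. Many ribosomal protein genes have near-identical pseudogene copies, so their counts are uncertain.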

How the data were processed

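RNA-seq read counts per Ensembl gene were deposited by the authors for 10 libraries, without normalization. The submitters' processing notes name STAR, DESeq2 and the build GRCm38. Their versions, the gene counter and its treatment of reads with several matches are not given in the sources used here. Per the labels' protocols, RNA was amplified with NuGEN Ovation V2 and libraries were made with Nextera XT, which do not mark strand, so reads of overlapping genes cannot be told apart. Of 248 genes named, 10 share at least 25% of their exon length with another gene (Apoa4, Kctd12, Rac1, Ifitm2, Cdkn1c, Fcnaos, Hopx, Fdps, Ltc4s and Tuba1a). Of 43432 identifiers 42548 were matched to symbols in GENCODE M21.

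The 6 intestinal libraries were fitted alone with edgeR 4.0.16 in R 4.3.3 (filterByExpr with a minimum count of 10 and a minimum total of 15, trimmed mean of M values, glmQLFit and glmQLFTest), and p-values were adjusted by the Benjamini-Hochberg method over all genes tested. Levels are counts-per-million values (CPM) computed from the counts. Levels between genes are transcripts-per-million values (TPM) over the exon length of each gene, without mitochondrial genes. On simulated counts for 15517 genes this fit recovered 62% of 100 genes changed 2-fold and 98% of 100 changed 4-fold, with 8 false calls. Libraries held 46846738 to 73574745 counts, and each replicate was 1 mouse.

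The members and the 53 gene lists and 48 symbol families were chosen with earlier results of these data known. Genes were named by rule: 6 fixed genes, the 15 largest changes each way with at least 50 CPM and groups that did not overlap, up to 4 called members each way of each list with at least 10 CPM plus 2 abundant uncalled ones, the largest called change of each family, 5 noncoding genes each way, and 10 genes each way with at least 500 CPM in both groups. Atp2a2, Atp2a3, B3gnt6, Bmx, Cacna2d2, Cd300lf, Cd3e, Cdhr2, Cftr, Chat, Clec4a1, Dgki, Espn, Ffar2, Gfi1, Hoxa4, Hoxa5, Hpgds, Ido1, Itpr2, Itpr3, Kctd12, Krt19, Lck, Lpar5, Pik3cg, Pilrb2, Pla2g4a, Plcb2, Prkcb, Rac1, Rac2, Rapgef3, S100a6, Sct, Sh2b2, Sh2d7, Siglecf, Skap2, Slc2a1 and Sst were named outside the rule, after their values were seen. Counts shared with thymic libraries were estimated by non-negative least squares over 282 genes with at least 2000 thymic counts. Alternatives were DESeq2 1.42.0, other scalings and filters, all 10 libraries, a replicate block, a minimum fold, thinning to equal depth, removal of gene groups, subtraction of the thymic share and leaving out each library. A few genes that the rule names are not reported here.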

Additional observations from a re-analysis of the deposited data

How the results depend on the processing

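No gene called in the 6-library fit was called in the opposite direction under any of the 18 alternatives. The counts of genes higher and lower were 2101 and 2199 in a fit of all 10 libraries with a shared spread, and 1258 and 1278 when a change of more than 2-fold was tested. They ranged from 2708 to 3601 higher and from 2688 to 3837 lower when 1 library was left out. With the replicate number as a block they were 2418 and 2455. Deviations from the group means correlated at -0.016 over genes for the libraries numbered 2 and at -0.032 for those numbered 3. With 3 libraries per group these values cannot decide whether equal numbers stand for the same mouse. Under the other settings there were 2511 to 3838 higher and 2560 to 3907 lower. Of the 232 called genes named in the text, 5 lost their call without some library (Amn, Apoa1, Itpr3, Muc13 and Rac1). Calls were also lost for 15 of these genes in the fit of all 10 libraries (Amn, Apoa1, Apoa4, Bhlha15, Cd3e, Chrm1, Ffar2, Frk, Gzmb, Itpr3, Lmx1a, Muc13, Onecut3, Reg3a and Tcf7l2), for 7 with the replicate block (Amn, Apoa1, Atp2a2, Itpr3, Muc13, Rac1 and Tcf7l2), for Muc13 with upper quartile scaling or the minimum of 10 CPM, and for 25 when a change of more than 2-fold was tested. The fold change of 31 moved by more than 1.5-fold, to a larger size in 30 and to a smaller size in 2 (Cldn4 and Kcnc1). For Kcnc1 the fold change moved both ways. On the log2 scale, without epithelium library 3 it became 6.95 for Avil, -3.11 for Cldn4, 8.27 for Col15a1, 8.17 for Dnah6, 7.72 for Fcnaos, 7.27 for Ltb, 8.42 for Nrgn and 3.65 for Tnf. Without tuft library 2 it became -5.25 for Bhlha15, -4.90 for Gfi1, -4.21 for Kcnc1, -8.74 for Mptx2 and -6.22 for Plcb1. Without tuft library 3 it became -3.10 for Dll4, -5.33 for Ghrl, -5.27 for Kcnb2, -5.99 for Sst and -4.86 for Syt7. Without tuft library 4 it became -6.17 for Ang4, -5.90 for Chrm1, -5.65 for Galnt5, -3.93 for Gnao1, -5.13 for Gng4, -5.70 for Kcnc1, -5.99 for Lyz1, -4.35 for Neurod1, -7.49 for Pla2g2a and -4.92 for Trpm2. For Hoxa4 and Prkcb without epithelium library 3, Onecut3 without tuft library 3 and 9030622O22Rik without tuft library 2, the lower group was left with 5, 6, 6 and 7 counts and no value is given. The cause of these changes was not tested.

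With 3 libraries per group small changes can be missed, so a gene that was not called is not shown to be unchanged. The simulated recovery of 62% of 2-fold changes does not measure the share missed in these data. Its altered genes made up a far smaller part of all genes than the 43.5% called here. Levels under the 0.0408 to 0.0640 CPM that 3 counts stand for could not be measured, and this floor covers counting error only. Folds of genes with few epithelial counts depend on them.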

Other observations

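Tuft cells held transcripts of surface receptors otherwise known from leukocytes. Siglecf, a sialic acid receptor of eosinophils that also stands on the tuft list, was at 9.78, 7.71 and 12.7 CPM in the epithelium libraries and 885, 967 and 879.7 CPM in the tuft libraries (log2 change 6.50 with an SE of 0.22, adjusted p = 3.17e-08). Cd300lf, a lipid-binding receptor of myeloid cells, rose from 7.90 to 611 CPM, Pilrb2 from 0.751 to 62.3 CPM and the lectin Clec4a1 from 0.949 to 44.1 CPM. The groups did not overlap for any of these 4 genes, which were picked after their values were seen. Genes of guidance cues and their receptors, the semaphorins and plexins, were called higher for 10 of 22 and lower for 6. Sema6c rose from 0.190 to 26.8 CPM (log2 change 7.08, or 8.02 after subtraction of the counts shared with thymic libraries), whereas Sema5a fell from 115 to 47.8 CPM. Chemokines were called lower for 7 and higher for 1 of 17, and kinesins, the motors of microtubules, lower for 21 and higher for 5 of 33. Rab genes, which direct vesicle traffic, were called higher for 15 and lower for 8 of 51.

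Lysosome and autophagy genes rose for 21 of 50 and fell for 5 (3 fell without epithelium library 1 and 8 without tuft library 2). Gabarapl2, of the autophagosome, rose from 3.09 to 33.8 CPM, and Cd63, a lysosomal tetraspanin, fell from 47.5 to 24.1 CPM. Sterol genes rose for 11 and fell for 6 of 39. Fdps and Hmgcs1, enzymes of sterol synthesis, rose from 10.7 to 43.4 CPM and from 179 to 437 CPM, and Insig1, which restrains that route, fell from 121 to 68.04 CPM. Amino acid transporters were called higher for 8 and lower for 12 of 36. The glutamine carrier Slc1a5 rose from 77.00 to 258 CPM and Slc7a5, which carries large neutral amino acids, fell from 27.4 to 4.39 CPM. Genes of iron, heme and redox chemistry rose for 18 of 50 and fell for 14. Among them Tfrc, which takes up iron, fell from 128 to 57.1 CPM, and Heph, which helps iron leave the cell, rose from 60.4 to 167 CPM. Of genes for bicarbonate, proton and water transport 12 of 40 rose and 9 fell. Slc4a8, a bicarbonate carrier, rose from 9.78 to 169 CPM, and Slc12a8 fell from 106 to 5.96 CPM.

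Among mucosal defence genes 6 of 32 rose and 10 fell. Ang4, an antimicrobial ribonuclease, was at 339, 411 and 377 CPM in the epithelium libraries and 8.26, 2.07 and 19.7 CPM in the tuft libraries, and Itln1, a lectin that binds microbes, fell from 2164 to 77.8 CPM. Reg3a, a lectin of the Reg family, rose from 21.3 to 49.6 CPM. Single genes that differed by over 32-fold outside all lists included Dgki, a diacylglycerol kinase that rose from 1.20 to 93.6 CPM, Ido1, which breaks down tryptophan and fell from 381 to 11.4 CPM, and S100a6, a calcium-binding protein that fell from 157 to 4.29 CPM. These were also picked after their values were seen.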
